A study of Mus musculus with 10 samples.

Results

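The genes described here are 9 transcription factors of the naive pluripotent state: Nanog, Zfp42, Esrrb, Tfcp2l1, Tbx3, Prdm14, Nr5a2, Nr0b1 and Sall4. They were taken as a list of symbols, matched in the platform annotation of the array, and all 9 of them were found among the 18193 measured genes, on 21 of the 34945 probe sets that carry a single gene symbol. The study hybridised mouse RNA to 10 Affymetrix arrays. By their titles, 3 arrays held neural stem cells (NSC) differentiated from iPS cells and 3 held the induced pluripotent stem (iPS) cells themselves. The other 4 are titled neural stem cell only and are called brain NSC here.

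All 3 groups go back to adult brain NSC of mice that carry the Oct4-eGFP transgene OG2 together with Rosa26 neo/lacZ, crossed with ICR females. The OG2 transgene is a fluorescent reporter driven by Oct4 regulatory sequence, and the Rosa26 insertion marks cells of every tissue. The labelled iPS-derived NSC were differentiated from iPS cells by an adapted published protocol. The labelled iPS cells came from brain NSC infected with a pMX retrovirus that carries mouse Oct4 cDNA, cultured in embryonic stem cell medium with LIF without selection, picked as colonies by their reporter and grown on irradiated embryonic fibroblasts. For brain NSC no infection is described. How many colonies, cultures or animals stand behind the replicates of a group is not stated, so p-values measure the spread between these samples, which may be technical.

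The naive state is the condition of mouse embryonic stem cells and of the early epiblast, in which a cell can still give rise to every tissue of the embryo. Oct4 and Sox2 hold it together with a second layer of factors that includes the genes named above, and LIF, through Stat3, and Wnt signals feed into that layer. Adult neural stem cells use Sox2 but are not known to use the second layer.

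The marker genes went against the labels of the iPS-derived NSC and iPS arrays. Values are RMA values on the log2 scale. Pou5f1, which encodes Oct4, averaged 13.29 ± 0.25 under the iPS-derived NSC label, 4.66 ± 0.15 under the iPS label (SD, n = 3 each), and 4.55 ± 0.05 in brain NSC (SD, n = 4). Whether its probe set also reads the Oct4 transcript of the retrovirus was not tested. Fabp7, a fatty acid binding protein of neural stem cells, read 4.41, 4.65 and 4.23, then 14.15, 14.19 and 14.18, then 14.49, 14.47, 14.52 and 14.31 in the same order of groups. Every array of both groups shows this, so no result below could be given without them, and each direction follows the deposited label, also where the arrays are called iPS-derived NSC or iPS for short. Whether the titles of these groups were exchanged was not tested. An exchange would turn the sign of every difference of iPS-derived NSC over iPS and pass each difference from brain NSC to the other label.

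Each of the 9 factors exceeded its level in both other groups in the arrays titled iPS-derived NSC. On the brightest probe set of each gene, chosen by its mean across all 10 arrays, all 9 were called higher in iPS-derived NSC than in iPS, where 10.8% of all genes were called higher and 25.3% in either direction, and all 9 were called higher than in brain NSC, where 11.3% were called higher and 25.4% in either direction. A call required a limma p under 0.05 after adjustment over all 18193 genes, together with a change of 2-fold or more. In iPS over brain NSC 0 of the 9 were called higher or lower, where 0.951% of all genes were called higher and 0.890% lower, 1.84% in all. Without brain NSC replicate 4, 332 genes in place of 173 were called higher, while 0 of the 9 factors were called then too. The median difference of the 9 was 5.66 in iPS-derived NSC over iPS, 5.30 in iPS-derived NSC over brain NSC and -0.09 in iPS over brain NSC, beside medians of 0.12, 0.13 and 0.01 over all genes. The first 2 comparisons share the arrays labelled iPS-derived NSC, and the last 2 share brain NSC, so they are not independent.

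**Figure D1:**
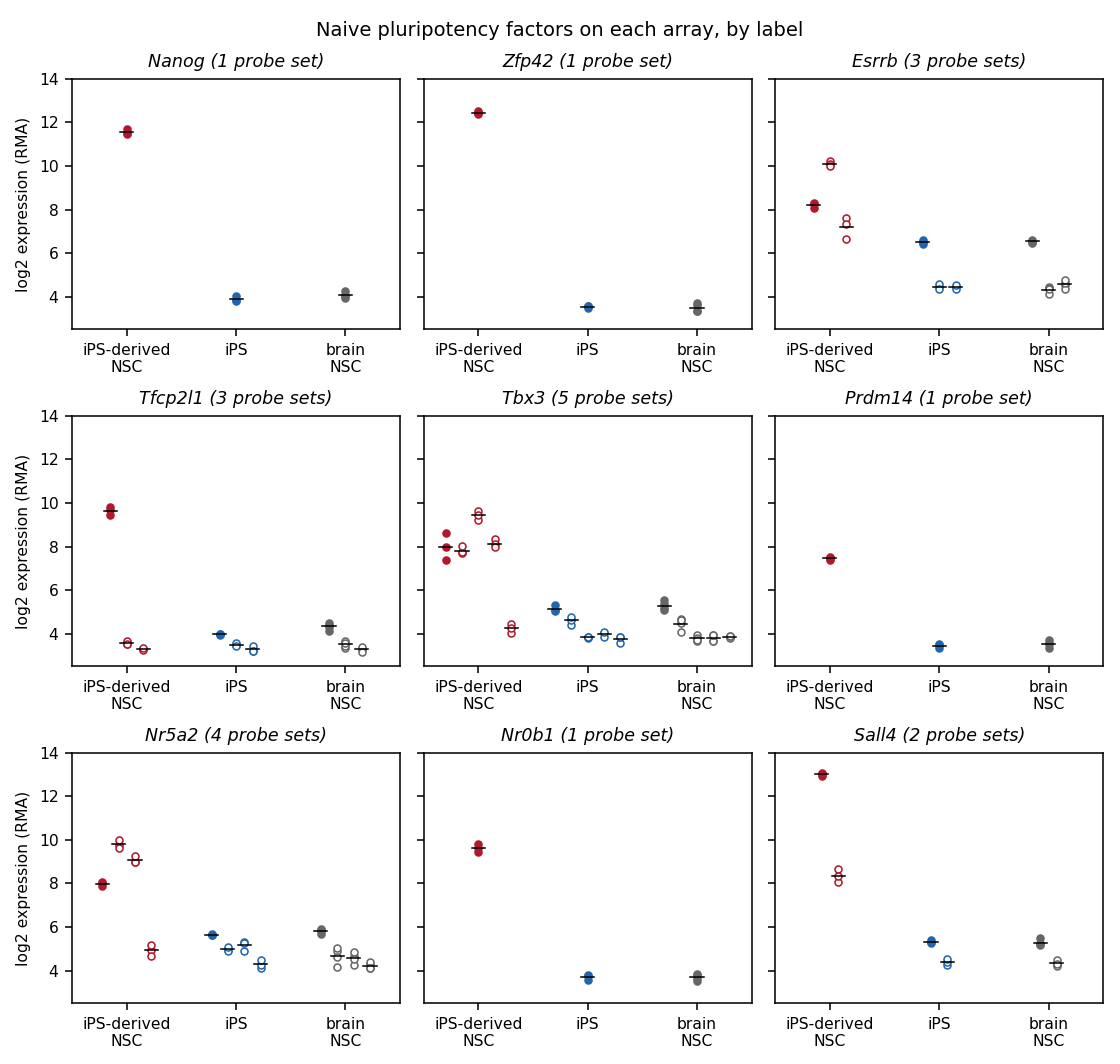
Expression of the 9 factors on each of the 10 arrays (vertical axis, log2 RMA value), by the label of the array (horizontal axis). Each point is 1 array, each column of points 1 probe set, filled for the brightest probe set of the gene, and the line is the group mean. The brightest probe set of every gene lies higher in each array labelled iPS-derived NSC than in any other array, while 2 probe sets of Tfcp2l1 stay near 3.5 everywhere.

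Nanog is the homeodomain protein that lets embryonic stem cells renew themselves without LIF when it is overproduced. Its 1 probe set read 11.52, 11.70 and 11.49 in iPS-derived NSC, 4.05, 3.80 and 3.85 in iPS, and 4.03, 4.27, 3.94 and 4.08 in brain NSC. The first group stood far apart from both others, which overlapped. Nanog was higher in iPS-derived NSC than in iPS by 7.67 ± 0.11 (SE, 203-fold, limma adjusted p = 3.42e-15) and than in brain NSC by 7.49 ± 0.10 (limma adjusted p = 1.76e-15). Its difference in iPS over brain NSC was -0.18, with a 95% interval of -0.40 to 0.04.

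Among the zinc finger proteins, Zfp42, also called Rex1, is a standard marker that embryonic stem cells lose when they leave the naive state. It read 12.51, 12.38 and 12.43 in iPS-derived NSC, 3.48, 3.58 and 3.56 in iPS, and 3.70, 3.62, 3.33 and 3.35 in brain NSC. The difference of iPS-derived NSC over iPS was 8.90 ± 0.11 (477-fold, limma adjusted p = 1.23e-15), and that over brain NSC 8.94 ± 0.10. Zfp42 read near the low end of the arrays in iPS and brain NSC, so the exact size of its difference and its order among the factors depend on how RMA sets low values.

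Sall4 is a zinc finger protein that sustains Oct4 expression and that is used in the primed epiblast and in germ cells too. Its brighter probe set read 13.05, 12.95 and 13.01 in iPS-derived NSC, 5.29, 5.41 and 5.30 in iPS, and 5.49, 5.18, 5.21 and 5.25 in brain NSC. The rise over iPS was 7.67 ± 0.10 and over brain NSC 7.72 ± 0.09 (limma adjusted p = 1.69e-15 and 7.48e-16). The other probe set of Sall4, whose ID marks it as able to bind several transcripts, moved the same way by a smaller 3.96 ± 0.14 and 4.03 ± 0.13 in the fit over all probe sets. Both probe sets were designed on the same transcript sequence, by the accession the annotation gives.

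Prdm14 is a PR domain protein that restrains fibroblast growth factor signalling and the de novo DNA methyltransferases in embryonic stem cells and primordial germ cells. Its 1 probe set read 7.54, 7.47 and 7.39 in iPS-derived NSC, 3.35, 3.52 and 3.48 in iPS, and 3.70, 3.53, 3.36 and 3.57 in brain NSC. The groups were cleanly apart between iPS-derived NSC and the other two labels, with a rise over iPS of 4.01 ± 0.10 and over brain NSC of 3.92 ± 0.10 (limma adjusted p = 7.08e-13 and 3.96e-13).

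The 3 nuclear receptors were Esrrb, Nr5a2 and Nr0b1. Nr0b1, also called Dax1, lacks the zinc finger DNA-binding domain of the family and binds other factors, Oct4 among them. Its 1 probe set read 9.61, 9.43 and 9.83 in iPS-derived NSC, 3.56, 3.77 and 3.81 in iPS, and 3.53, 3.81, 3.85 and 3.68 in brain NSC. It rose by 5.91 ± 0.13 over iPS and 5.90 ± 0.12 over brain NSC (limma adjusted p = 1.08e-13 and 4.88e-14), and its values in iPS and brain NSC covered the same range, with a difference of -0.01 (95% interval -0.26 to 0.25).

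Esrrb, an orphan receptor that can stand in for Nanog in embryonic stem cells, showed how much a difference can hang on the probe set. Its brightest probe set read 8.31, 8.05 and 8.25 in iPS-derived NSC, 6.52, 6.59 and 6.42 in iPS, and 6.62, 6.47, 6.55 and 6.51 in brain NSC. That probe set rose by 1.70 ± 0.10 over iPS (limma adjusted p = 3.18e-09). Another read 10.22, 10.09 and 10.01 in iPS-derived NSC, 4.44, 4.58 and 4.36 in iPS, and 4.46, 4.39, 4.12 and 4.36 in brain NSC, a rise of 5.65 ± 0.11 (limma adjusted p = 1.16e-13 over all probe sets). The brightest one ranks first through its values near 6.5 in the groups where the gene is low, and its ID marks it as able to bind unrelated sequences. The third Esrrb probe set rose by 2.75 ± 0.20, with 7.61, 6.65 and 7.34 in iPS-derived NSC.

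Nr5a2, also called Lrh1, binds regulatory regions of Pou5f1 and can replace Oct4 among the reprogramming factors in mouse fibroblasts. Its brightest probe set read 8.05, 7.90 and 8.02 in iPS-derived NSC, 5.64, 5.62 and 5.68 in iPS, and 5.91, 5.69, 5.86 and 5.80 in brain NSC, and it rose by 2.34 ± 0.09 over iPS and 2.17 ± 0.09 over brain NSC (limma adjusted p = 5.11e-11 and 4.63e-11). A probe set with 9.76, 10.00 and 9.63 in iPS-derived NSC against 4.97, 4.90 and 5.07 in iPS rose by 4.82 ± 0.18, and one with 9.01, 9.01 and 9.26 against 4.90, 5.31 and 5.27 rose by 3.93 ± 0.16. The Nr5a2 probe sets thus moved in 1 direction and by unequal amounts. A last probe set stood only 0.64 ± 0.14 higher and was not called, with 4.95, 4.69 and 5.18 in iPS-derived NSC against 4.14, 4.26 and 4.50 in iPS.

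Tfcp2l1, a grainyhead-like factor that Stat3 induces under LIF, had 1 probe set that changed and 2 that did not reach any threshold. The first read 9.67, 9.81 and 9.44 in iPS-derived NSC, 3.99, 3.95 and 4.01 in iPS, and 4.39, 4.30, 4.51 and 4.15 in brain NSC. It rose by 5.66 ± 0.12 over iPS and 5.30 ± 0.11 over brain NSC (limma adjusted p = 8.95e-14 and 6.65e-14). The other 2, both designed on another transcript sequence, had differences of 0.00 and 0.08 over iPS (95% intervals -0.22 to 0.22 and -0.15 to 0.30), and their highest value on any array was 3.66. Which part of the gene they read was not tested.

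Tbx3, a T-box factor that embryonic stem cells use to stay undifferentiated and that many other tissues use as well, had the widest spread. Its brightest probe set read 7.39, 8.62 and 7.99 in iPS-derived NSC, 5.04, 5.07 and 5.30 in iPS, and 5.55, 5.17, 5.36 and 5.07 in brain NSC. The SD of 0.62 among the arrays labelled iPS-derived NSC exceeded that of the other 8 factors in that group and was well above the median SD of 0.13 over all genes there. The rise over iPS was 2.86 ± 0.23 and over brain NSC 2.71 ± 0.22 (limma adjusted p = 1.21e-07 and 9.33e-08). Another Tbx3 probe set read 9.63, 9.23 and 9.43 in the same 3 arrays of iPS-derived NSC, against 3.81, 3.86 and 3.86 in iPS, and rose by 5.59 ± 0.12. The array of iPS-derived NSC that was lowest on the first of these probe sets was highest on the second. The remaining Tbx3 probe sets rose by 4.15 ± 0.13 and 3.20 ± 0.16, and 1 stood only 0.49 ± 0.12 higher and was not called.

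Over all 21 probe sets of the 9 factors, 17 were called higher and 0 lower in iPS-derived NSC over iPS, with 9.68% of all 34945 probe sets called higher, and the same counts held over brain NSC, with 9.87%. Arrays did not overlap, with iPS-derived NSC higher, for 19 of the 21 probe sets and for all 9 brightest ones in both comparisons. Over iPS 40.1% of all genes did not overlap in that direction and 29.4% in the other, and over brain NSC 35.9% and 25.4% did. The 4 probe sets not called belonged to Tfcp2l1, Tbx3 and Nr5a2. In iPS over brain NSC 0 of the 21 were called, where 1.22% of all probe sets were called higher and 1.16% lower, 2.38% in all. With the probe set of the highest group mean in place of the brightest, a choice made after seeing the data that follows the group where a gene is high, the difference of iPS-derived NSC over iPS became 5.65 for Esrrb, 5.59 for Tbx3 and 4.82 for Nr5a2, and did not change for the other 6. With the mean of all probe sets of a gene, Tfcp2l1 dropped to 1.91.

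**Figure D2:**
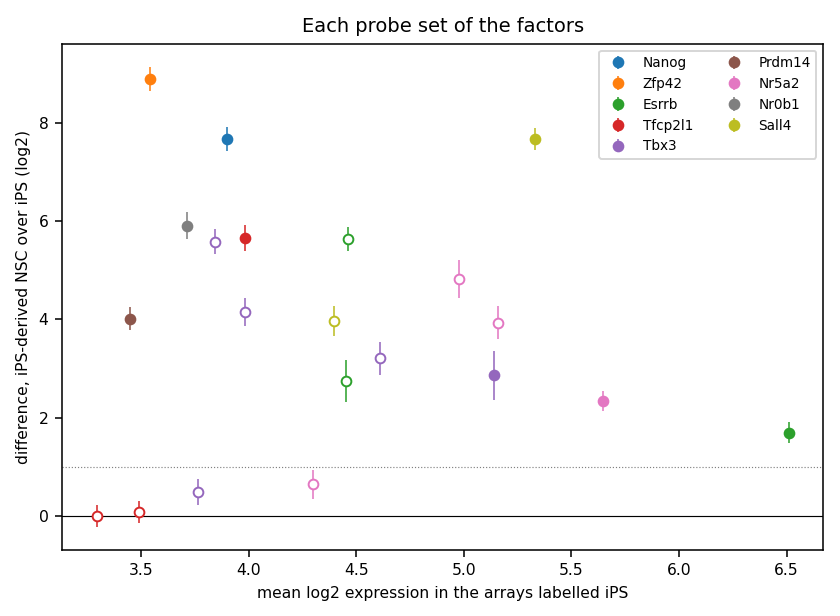
Difference of iPS-derived NSC over iPS (vertical axis, log2 units, bar: 95% interval) for each of the 21 probe sets, against the mean log2 value of that probe set in the arrays labelled iPS (horizontal axis). Colours mark the gene, filled points the brightest probe set, and the dotted line a 2-fold difference. The brightest Esrrb and Nr5a2 probe sets sit at the right, with differences of 1.70 and 2.34, while 4 probe sets lie under the dotted line.

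Between the arrays labelled iPS and brain NSC, 0 of the 9 factors were called, near the 1.84% share of all genes called. Of the 9 factors, the largest difference in iPS over brain NSC was that of Tfcp2l1, at -0.35 ± 0.11 (limma adjusted p = 0.0367), under 2-fold and therefore not called. Its 3 arrays labelled iPS, at 3.95 to 4.01, lay below all 4 of brain NSC, at 4.15 to 4.51. This value depended on the setting, with an adjusted p between 0.00743 and 0.294 over 18 alternatives. Nr5a2 was the other factor whose arrays did not overlap on the brightest probe set, at -0.17 ± 0.09 (limma adjusted p = 0.202). On a second Nr5a2 probe set the arrays labelled iPS lay above brain NSC, by 0.57 ± 0.15 (limma adjusted p = 0.0141 over all probe sets), so the probe sets of that gene differed in sign. Among all genes, 14.5% did not overlap with iPS higher and 13.8% with iPS lower. The upper ends of the 95% intervals of the 9 factors in iPS over brain NSC ranged from -0.12 for Tfcp2l1 to 0.32 for Tbx3, so a rise of 2-fold lay outside each of them on the RMA scale.

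Low RMA values bound these statements. The mean of the lower quartiles of all probe sets over the 10 arrays was 4.29. Nanog, Zfp42, Tfcp2l1, Prdm14 and Nr0b1 averaged below it in iPS, and in brain NSC the same genes except Tfcp2l1 did, which averaged 4.34. No detection calls accompany these values. Differences and folds against such levels are not exact, and a small difference between 2 low values could not be resolved.

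**Figure D3:**
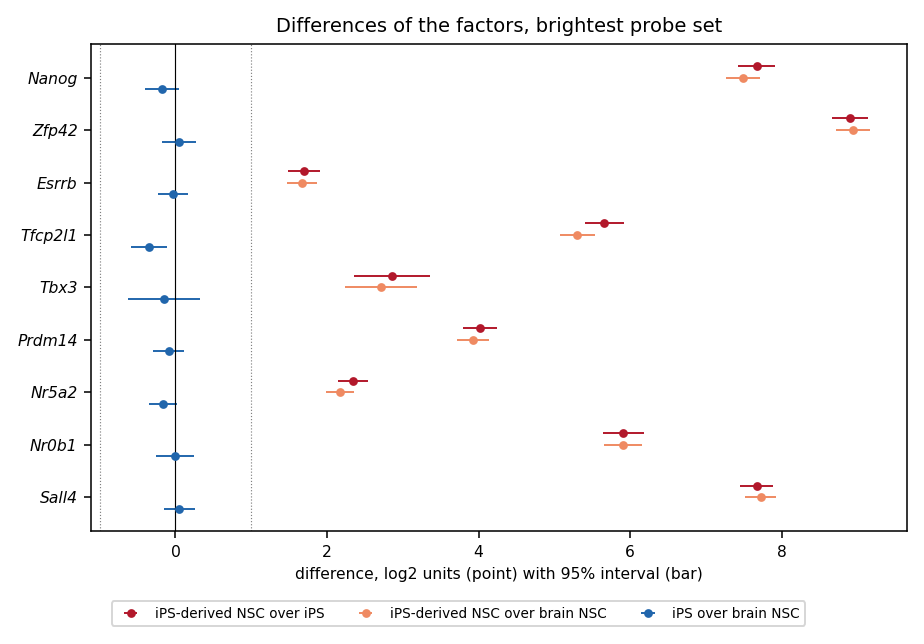
Difference of each factor on its brightest probe set (horizontal axis, log2 units) in the 3 comparisons. Points are limma differences, bars their 95% intervals, and dotted lines a 2-fold difference in either direction. Both comparisons with iPS-derived NSC lie right of the dotted line for all 9 factors, from 1.67 for Esrrb to 8.94 for Zfp42, and every difference of iPS over brain NSC lies between the dotted lines.

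Promoter sequences are shown because the 9 factors moved together and several of them are known to bind one another's genes. RefSeq windows of the GRCm38.p6 build, from 250 bases before to 50 after a transcription start, were at hand for 6 factors, with 9 windows in all: Nanog, Zfp42, Esrrb, Tfcp2l1, Nr5a2 and Nr0b1. Prdm14, Tbx3 and Sall4 are named only. The 250 bases before the start of 3 factors follow, 5′ to 3′ on the coding strand. Capitals mark, for Nanog at chr6:122707239-122707488 (plus strand), a joined Oct4 and Sox2 site and a Kruppel-like factor site, for Zfp42 at chr8:43307010-43307259 (minus strand), in order an NR5A half-site, an octamer and a Kruppel-like factor site, and for Tfcp2l1 at chr1:118627695-118627944 (plus strand), 2 Kruppel-like factor sites.
Nanog: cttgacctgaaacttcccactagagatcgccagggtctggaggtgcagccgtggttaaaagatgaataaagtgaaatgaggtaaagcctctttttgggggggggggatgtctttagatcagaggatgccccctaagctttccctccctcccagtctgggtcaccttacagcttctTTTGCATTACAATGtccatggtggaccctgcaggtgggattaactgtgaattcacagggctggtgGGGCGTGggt
Zfp42: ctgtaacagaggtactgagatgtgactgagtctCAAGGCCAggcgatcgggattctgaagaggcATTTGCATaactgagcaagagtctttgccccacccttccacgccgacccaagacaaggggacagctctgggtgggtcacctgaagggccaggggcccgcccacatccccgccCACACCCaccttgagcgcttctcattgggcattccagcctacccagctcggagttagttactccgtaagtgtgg
Tfcp2l1: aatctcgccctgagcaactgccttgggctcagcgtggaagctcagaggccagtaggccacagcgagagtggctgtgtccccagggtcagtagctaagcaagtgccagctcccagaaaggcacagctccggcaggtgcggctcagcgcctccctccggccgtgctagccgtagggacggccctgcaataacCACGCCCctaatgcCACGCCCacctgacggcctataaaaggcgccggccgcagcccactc

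The octamer ATGCAAAT, which POU factors such as Oct4 bind, was found on either strand in the Zfp42 window and in 1.74% of all 32851 windows of the table. Its shorter form ATGCAAA, contained in it, was found in both Nanog windows and in the Zfp42 window, and in 4.63% of all windows. In Nanog it stood 75 bases before the first start and directly beside the SOX letters ACAATG, with 1 base between them. That arrangement, TTTGCAT and ACAA with 1 free base between, occurred in 12 of all windows, 2 of which were the overlapping Nanog windows with starts 76 bases apart. ACAATG alone was found in Nanog and Esrrb and in 12.57% of all windows.

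Letters that members of the group are known to bind were searched in the same windows, with no test of their frequency. The NR5A half-site CAAGGCCA was found in the Zfp42 window, 217 bases before the start, and in 2.40% of all windows. The ESRR half-site AAGGTCA (4.72% of all windows), the T-box half-site AGGTGTG (5.84%), the Prdm14 site GGTCTCTAA (0.26%) and a pair of CCAG letters spaced by 6 bases, read by Tfcp2l1 (3.44%), were found in 0 of the 9 windows. The Kruppel-like factor letters GGGTGTG were found in Zfp42 and Esrrb (7.95% of all windows), and GGGCGTG in Nanog, Nr5a2 and, at 2 places, Tfcp2l1 (8.44%). The STAT letters TTCNNNGAA were found in Esrrb (8.30%). Both strands were searched in each case, and a match is a description of these letters, not of binding. The windows had no shared base composition: the share of G and C ran from 42.00% in 1 of the Nr5a2 windows to 65.33% in Tfcp2l1, with a median of 52.67% over all windows.

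**Figure D4:**
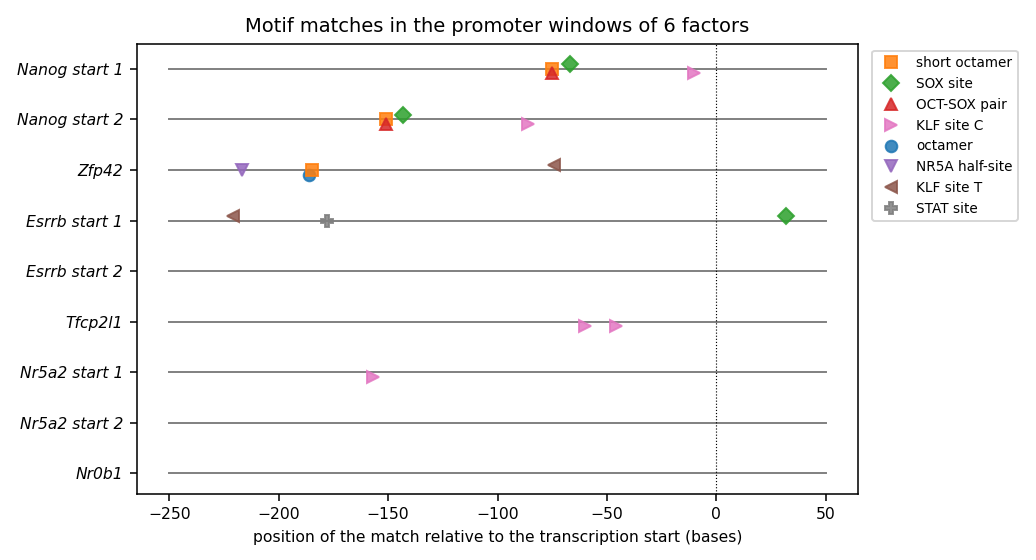
Matches of the searched letters (symbols, by motif) in the 9 promoter windows of 6 factors (rows), by position relative to the transcription start in bases (horizontal axis, start at 0). KLF site T is GGGTGTG and KLF site C is GGGCGTG, and the positions of a motif are those of its leftmost base. The octamer match of Zfp42, the short octamer matches of Zfp42 and Nanog and the SOX matches of Nanog lie upstream of the start. The Esrrb SOX match lies downstream of it. Nr0b1, the lower row of Esrrb and the lower row of Nr5a2 have no match.

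The paralogues of the factors, a list of near and more distant members of their gene families, had 2 of 18 measured genes called higher and 3 lower in iPS-derived NSC over iPS, with a median difference of 0.14. These counts lie near the background of 10.8% of all genes called higher and 14.4% lower, so they are no result about the paralogues as a list. Sall3, a relative of Sall4 of the developing nervous system and other tissues, read 6.38, 6.48 and 6.76 in iPS-derived NSC, 10.72, 10.84 and 10.65 in iPS, and 10.18, 10.57, 10.12 and 10.95 in brain NSC, and it fell by 4.19 ± 0.18 over iPS. Sall2 fell by 3.71 ± 0.15 over iPS and 4.56 ± 0.14 over brain NSC. Sall1 read 9.41, 9.28 and 9.35 in iPS-derived NSC and 9.78, 9.54 and 9.72 in iPS and was not called (-0.33 ± 0.10). The 4 Sall genes therefore differed, Sall4 higher, Sall2 and Sall3 lower and Sall1 not called.

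Grhl2, an epithelial grainyhead factor of the family of Tfcp2l1, read 9.69, 9.92 and 10.05 in iPS-derived NSC, 5.96, 5.93 and 5.66 in iPS, and 5.95, 5.87, 6.01 and 5.87 in brain NSC. It rose by 4.04 ± 0.11 over iPS, and Grhl1 by 1.52 ± 0.20. Tfcp2, closer in sequence to Tfcp2l1, was not called at -0.44 ± 0.15. Tbx2 fell by 1.19 ± 0.11 over iPS, and its difference over brain NSC, at -0.97 ± 0.10, missed the 2-fold limit. Of the nuclear receptors, Esrra (-0.58 ± 0.14), Esrrg (0.10 ± 0.13), Nr5a1 (0.04 ± 0.09) and Nr0b2 (0.53 ± 0.10) were not called, nor was Yy1, the relative of Zfp42 (0.29 ± 0.10). Between iPS and brain NSC 0 of the 18 were called, near the 1.84% share of all genes called. Sall2 had the largest difference (-0.86 ± 0.14).

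Among the other transcription factors of the network, 13 of 21 measured were called higher and 0 lower in iPS-derived NSC over iPS, with a median of 2.14 and beside 10.8% and 14.4% of all genes. Dppa2, which helps keep early developmental genes free of DNA methylation, rose by 9.45 ± 0.10 and Pou5f1 by 8.62 ± 0.12. Klf4 (5.12), Klf5 (4.71) and Klf2 (4.03), Kruppel-like factors that act beside Esrrb and Tfcp2l1, rose as well, as did Gbx2 (2.57), a homeobox gene that Stat3 induces. Sox2 read 12.19, 12.15 and 12.11 in iPS-derived NSC, 12.07, 11.91 and 12.13 in iPS, and 12.19, 12.19, 12.24 and 12.08 in brain NSC, and was not called in any comparison. Over brain NSC 14 were called higher and 2 lower, beside 11.3% of all genes called higher and 25.4% in either direction. The 2 lower were Myb (-1.56) and Stat3 (-1.08), too few to be a result about the list. For iPS over brain NSC the count was 0 of 21, near the 1.84% share of all genes called.

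Of the pluripotency genes listed as targets of the network, 18 of 24 measured were called higher in iPS-derived NSC over iPS and 1 lower. The list does not separate targets that the network switches on from those that a factor such as Prdm14 restrains. The median was 4.58, and 10.8% of all genes were called higher and 14.4% lower. Dppa5a, an RNA-binding protein of embryonic stem cells, read 14.49, 14.54 and 14.49 in iPS-derived NSC, 5.43, 5.63 and 5.62 in iPS, and 5.99, 5.79, 5.68 and 5.90 in brain NSC, and it rose by 8.94 ± 0.10 over iPS. Cdh1, the epithelial cadherin that holds stem cell colonies together, rose by 8.88 ± 0.10. The 1 that fell was Jam2, a junction protein, by 1.11 ± 0.11. Over brain NSC 19 rose and 1 fell, beside 11.3% of all genes called higher and 25.4% in either direction. In iPS over brain NSC 0 of 24 were called, near the 1.84% share of all genes called.

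**Figure D5:**
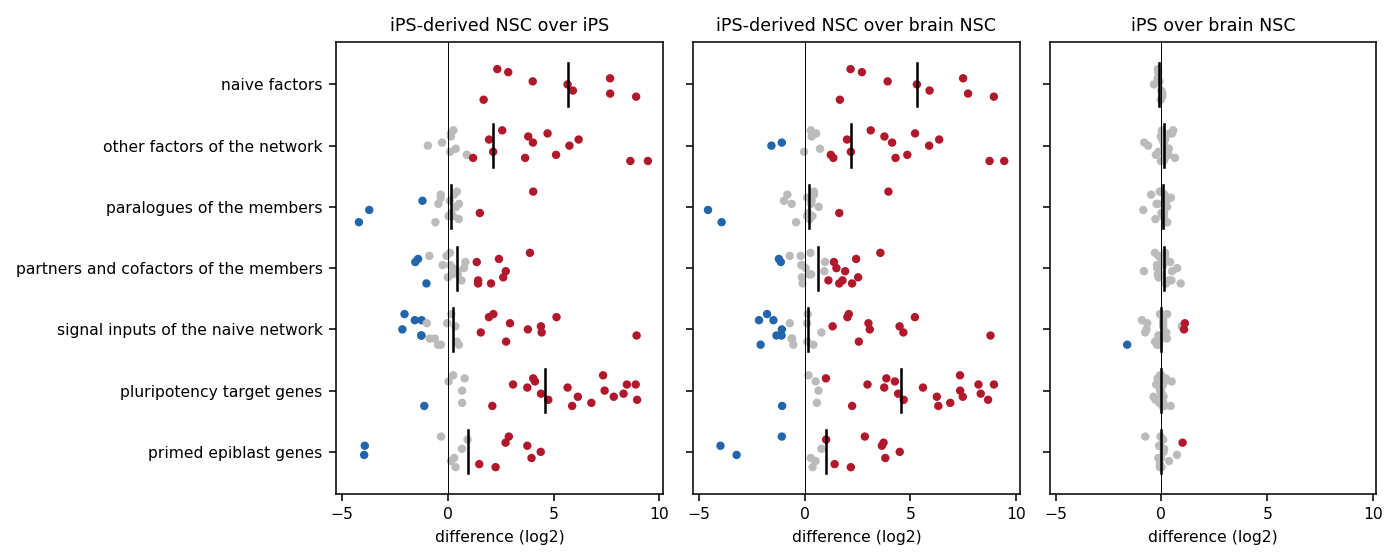
Differences (horizontal axis, log2 units) of the genes of 7 lists (rows) in the 3 comparisons (panels). Each point is 1 gene on its brightest probe set, red for called higher, blue for called lower and grey for not called, and the black line is the median of the list. The naive factors and the pluripotency target genes have medians of 5.66 and 4.58 in the left panel, and the paralogues have 0.14.

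Genes that carry signals into the network were called in both directions. Of 26 measured, 10 were called higher and 6 lower in iPS-derived NSC over iPS, beside 10.8% and 14.4% of all genes, with a median of 0.27. The Nodal co-receptor Tdgf1 rose by 8.92 ± 0.09 and the ligand Nodal by 5.14 ± 0.14. Socs3, the feedback inhibitor that LIF and Stat3 induce, averaged 11.34 ± 0.09 in iPS-derived NSC, 6.90 ± 0.15 in iPS (SD, n = 3 each) and 6.67 ± 0.15 in brain NSC (SD, n = 4), and was called higher in iPS-derived NSC over both. The FGF receptor Fgfr1 fell by 2.14 ± 0.17, and Dusp6, a phosphatase that reports FGF and Erk activity, by 2.04 ± 0.10. Over brain NSC 10 were higher and 7 lower, beside 11.3% of all genes called higher and 25.4% in either direction. Gsk3b (-2.15 ± 0.30), a kinase that Wnt signals inhibit, and Id3 (-2.08 ± 0.09) fell most.

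In iPS over brain NSC, 3 of these 26 were called, beside 1.84% of all genes. The FGF and Erk feedback gene Spry4 (1.11 ± 0.15) and Fgfr1 (1.07 ± 0.16) were higher and Id3, a target of BMP signals, was lower (-1.62 ± 0.09). Without brain NSC replicate 4, 5 of the 26 were called. Fgfr1 read 10.85, 10.92 and 10.80 in the arrays labelled iPS, against 9.62, 9.66, 9.58 and 10.30 in brain NSC, the last in replicate 4.

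Of the cofactors that bind the 9 factors, 8 of 24 measured were called higher and 3 lower in iPS-derived NSC over iPS, beside 10.8% and 14.4% of all genes, with a median of 0.46. Ncoa3, a coactivator of Esrrb, read 10.56, 10.33 and 10.52 in iPS-derived NSC, 6.57, 6.69 and 6.50 in iPS, and 6.89, 6.86, 6.90 and 6.91 in brain NSC, and rose by 3.88 ± 0.09. Tet2, an enzyme that oxidises methylated DNA, rose by 2.74 ± 0.16, and Cbfa2t2, the corepressor partner of Prdm14, by 1.37 ± 0.10. The count of lower calls lies near the share of 14.4%, so it is no result about the cofactors as a list. The 3 that fell were NuRD complex subunits: Mta1 (-1.53), Hdac2 (-1.40) and, on the 2-fold limit, Mbd3 (-1.01). The ID of the Hdac2 probe set marks it as able to bind several transcripts. The NuRD subunits of the list did not move together. Hdac1 was called higher (1.44), and Chd4, Mta2, Gatad2a, Rbbp4 and Rbbp7 were not called. Mbd3 was not called over brain NSC, with 9.06 to 9.61 in iPS-derived NSC and overlapping values of 8.90 to 10.26 in brain NSC. Over brain NSC 10 were higher and 2 lower, beside 11.3% of all genes called higher and 25.4% in either direction. The 2 lower calls are too few to be a result about the list. Between iPS and brain NSC 0 of 24 were called, near the 1.84% share of all genes called, and 2 were without brain NSC replicate 4.

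The primed epiblast list, for the state that follows the naive one, had calls in both directions. Of 15 measured, 7 were called higher and 2 lower in iPS-derived NSC over iPS, beside 10.8% and 14.4% of all genes, with a median of 0.93. The count of lower calls lies near that share. Krt18 and Eomes of this list are in the trophectoderm list too, and Sox17 and Foxa2 in the primitive endoderm list. The keratin Krt18 (4.39 ± 0.12) and the Wnt antagonist Dkk1 (3.96 ± 0.12) rose most, and Pou3f1 (-3.95 ± 0.12) and Sox3 (-3.92 ± 0.20), which neural progenitors also use, were the 2 that fell. Fgf5, the usual marker of the primed state, read 4.34, 4.56 and 4.50 in iPS-derived NSC, 3.97, 4.62 and 4.34 in iPS, and 3.83, 4.06, 3.83 and 4.06 in brain NSC, and was not called in any comparison. Over brain NSC 8 were higher and 3 lower, beside 11.3% of all genes called higher and 25.4% in either direction. In iPS over brain NSC 1 of 15 was called, beside 1.84% of all genes: Otx2 at 1.00 ± 0.16, on the 2-fold limit. Leaving out iPS replicate 2 or 3, or brain NSC replicate 1 or 4, ended that call.

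Markers of other cell types were also called between the same arrays, where 10.8% of all genes were called higher and 14.4% lower. Feeder fibroblast markers had 6 of 13 higher and 2 lower in iPS-derived NSC over iPS. Their summed linear level was 3989.1 to 6037.8 in iPS-derived NSC, 15871.1 to 16862.9 in iPS and 16331.0 to 22006.2 in brain NSC, and Vim, which neural stem cells express strongly too, was the brightest in each group (11.27, 13.92 and 14.12). The next brightest, Acta2, averaged 9.37, 7.69 and 7.77, so the order of these sums follows Vim and is no measure of the other markers. Col3a1 changed most, rising by 2.95 ± 0.42, with 7.44, 7.14 and 5.12 in iPS-derived NSC and 3.44, 3.91 and 3.51 in iPS. Primitive endoderm markers had 7 of 10 higher, among them Lama1 (4.33 ± 0.14) and Gata6 (3.52 ± 0.12), with sums of 5631.5 to 7140.4, 3487.9 to 3682.6 and 1634.2 to 2920.0 in the same order. Sparc, not called over iPS (-0.36), was the brightest of them in each group (11.10, 11.46 and 10.49) and weighs most in these sums. The germ cell list had 4 of 7 higher, led by Mael (5.66) and Ddx4 (5.55), with sums of 1993.6 to 2194.7, 555.3 to 628.7 and 238.2 to 263.4. Kit, the receptor of stem cell factor, was the brightest germ cell marker in each group, at 9.20 in iPS-derived NSC, 8.89 in iPS and 6.74 in brain NSC. It was the only one of the 7 called in iPS over brain NSC (2.15 ± 0.11), beside 1.84% of all genes. Mael, Ddx4, Dazl and Tdrd1 averaged below the lower quartile in both iPS and brain NSC. Trophectoderm markers had 4 of 9 higher, led by Krt18, with sums of 1473.5 to 1769.1, 275.1 to 286.7 and 269.8 to 305.7. In iPS-derived NSC, Lum alone of the 13 feeder markers, at 4.288, averaged below that quartile mean of 4.292. Of the primitive endoderm, trophectoderm and germ cell markers 0 did. A mean above this limit does not show that a gene is expressed. The part of these other cell types in the values of Sall4, Nr5a2 and Tbx3, which such cells can express, was not tested. On these arrays, a change in the number of cells that express a gene and a change in RNA per cell cannot be told apart.

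Of the neural stem cell markers, 12 of 13 were called lower in iPS-derived NSC over iPS, where 14.4% of all genes were called lower and 10.8% higher. Their summed levels were 1023.4 to 1148.6 in iPS-derived NSC, 65396.6 to 69875.8 in iPS and 66115.4 to 72452.2 in brain NSC. The marker not called was Hes5, a Notch target, at 5.35 in iPS-derived NSC, 5.86 in iPS and 9.44 in brain NSC. It was the only one of the 13 called in iPS over brain NSC (-3.58 ± 0.19), beside 1.84% of all genes. Gpm6a averaged below the lower quartile in iPS-derived NSC. Astrocyte markers, beside the same shares of all genes over iPS, had 4 of 8 lower, Mlc1 most (-6.35 ± 0.30). The neuron list, beside those shares too, had Map2 lower (-8.25 ± 0.09) and 3 of 8 higher, Tubb3 among them (5.34).

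Many genes shared the pattern of the 9 factors across the arrays. Each gene was set relative to its own mean in brain NSC, and likeness was measured as the root mean square difference over the 10 arrays among the other 18184 genes. The nearest gene was Morc1 for Nanog (0.15), Tdgf1 for Zfp42 (0.17), Chchd10 for Sall4 (0.11), Ddx58 for Prdm14 (0.11), Utf1 for Nr0b1 (0.13), Accsl for Esrrb (0.07), Slc30a2 for Nr5a2 (0.09), Tcstv1 for Tfcp2l1 (0.18) and Csrnp3 for Tbx3 (0.23). Nearest to the mean profile of the 9 were Tcstv1 (0.06), Eprn (0.13) and Gm7969 (0.13). The pattern is common: 533 genes correlated with Zfp42 above 0.99 and 516 with Nanog, over the same 10 arrays that fall into 2 levels. For Tbx3, with its wider spread, 0 genes did.

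By position on GRCm38.p6, 3 of the 9 lie on chromosome 1: Prdm14 (13113428 to 13127163), Tfcp2l1 (118627923 to 118685168) and Nr5a2 (136842562 to 136960448). Nr0b1 lies on X, and the others on 5 different autosomes.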

How the data were processed

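The authors deposited log2 values that RMA (Bioconductor) gave for each probe set, per the labels' protocols and the submitters' processing notes. They name no version of it. RMA makes the distributions of the arrays alike, so a shift shared by most genes is largely removed. The table held 45101 probe sets, 64 of them controls. Symbols came from the platform annotation and matched RefSeq by Entrez identifier for 34741 of the 34945 probe sets with 1 symbol. The brightest probe set stood for each of 18193 genes. Differences were fitted with limma 3.58.1 (lmFit, eBayes) in R 4.3.3 over all 10 arrays in 3 groups, with 7 residual and 5.95 prior degrees of freedom, two-sided and adjusted by Benjamini-Hochberg over all genes, or over all 34945 probe sets where stated. The fit was tested on simulated data. Intervals are at 95%. Replicate numbers did not pair the samples.

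The 9 genes were given as a list, and they and the gene lists were chosen with earlier results of these data known. The genes named are the 9 factors with every probe set; per list and comparison, up to 2 called genes with the largest rise and 2 with the largest fall; the brightest and most changed markers of other cell types; and the genes nearest in pattern. Others (Klf2, Klf4, Klf5, Gbx2, Sox2, Fgf5, Socs3, Cbfa2t2, Mbd3, Hdac1, Chd4, Mta2, Gatad2a, Rbbp4, Rbbp7, Eomes, Sox17, Foxa2, Acta2, Gata6, Ddx4, Dazl, Tdrd1, Hes5, Lum, Gpm6a and the paralogues that were not called) were named after their values were seen. Some listed genes are not analysed here, and counts are over the measured genes of each list. Promoter windows were searched with Python 3.11.15, pandas 2.3.3 and numpy 2.4.6.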

Additional observations from a re-analysis of the deposited data

How the results depend on the processing

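Of 486 differences of the 9 factors recomputed over 18 alternative settings and 3 comparisons, 486 kept their call. The settings were the mean over a gene's probe sets, leaving out probe sets that can cross-hybridise, quantile normalization, median centring, leaving out dim genes, fitting only the 2 groups compared, a replicate block, leaving out each array in turn and, added after seeing the data, the probe set with the highest group mean. All 9 factors were called higher in both comparisons of iPS-derived NSC, and 0 in iPS over brain NSC, under each of them. Sizes moved with the probe set: over iPS, Esrrb ran from 1.64 to 5.65, Tbx3 from 2.55 to 5.59, Nr5a2 from 2.29 to 4.82, Tfcp2l1 from 1.91 to 5.76 and Sall4 from 5.82 to 7.71.

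In iPS over brain NSC the genes called higher numbered 173 as reported, 110 with the mean of the probe sets, 332 with the replicate block and 141 to 332 with 1 array left out, the highest without brain NSC replicate 4. Called signal input genes, 3 as reported, were 1, 5 and 2 to 5 under those settings. Called cofactors, 0 as reported, were 2 with the replicate block, 1 without cross-hybridising probe sets and 0 to 2 with 1 array left out. Called primed epiblast genes, 1 as reported, were 2 with the mean of the probe sets, 0 with the replicate block, without cross-hybridising probe sets and with quantile normalization, and 0 to 1 with 1 array left out. The replicate block gives the differences found without brain NSC replicate 4 by construction, since no other group has a replicate 4. The cause of the other changes was not tested. The replicate numbers did not pair the arrays: of 9 same-numbered pairs, the correlation of deviations ran from -0.21 to 0.13 and exceeded 0.1 in 1. Low RMA values limit what can be resolved in iPS and brain NSC.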
